A study of Mus musculus with 4 samples.

Results

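RNA levels of ion channel genes were measured in C2C12 cells, a mouse myoblast line that fuses into multinucleate myotubes when serum is lowered. Genes were chosen by symbol: potassium channels (Kcn), voltage-gated sodium channels (Scn with a number), voltage-gated calcium channels (Cacn) and their store-operated counterparts (Orai), chloride channels (Clcn, Ano), and TRP, HCN, Piezo and P2X genes. Of 13824 gene symbols listed, 55 matched, and the 49 with a mean of 0.5 FPKM or more over the 4 libraries are described here. FPKM divide a transcript's fragments by its length and by the library total, so levels can be compared between genes per unit of length. The 49 comprised 14 potassium, 4 sodium, 10 calcium and 9 chloride channel genes and 12 others, and no HCN gene was among them.

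The study asked how silencing of MEF2A, a transcription factor of muscle genes, alters expression in differentiating myoblasts. Cells of every library received 30 nM siRNA with Lipofectamine and spent 48 h in differentiation medium (2% horse serum). In 2 libraries the siRNA was a scrambled sequence, the control, and in the other 2 (siMEF2A) it was directed against Mef2a. Whether the libraries of a group stem from different cultures is not stated in the labels. The p-values therefore cover the spread among these libraries alone, and that spread may be technical.

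Ion channels are membrane proteins with a pore for a given ion, often joined by auxiliary subunits that set their surface level and gating. In skeletal muscle, sodium channels carry the action potential, chloride and inward rectifier potassium channels hold the resting potential, and the L-type calcium channel of the transverse tubule senses voltage and opens the ryanodine receptor of the calcium store. Myoblasts acquire this set gradually as they fuse, and inward rectifier potassium current is among the first components to appear. Clcn3 to Clcn7 encode chloride/proton exchangers mainly of intracellular membranes, and Trpc4ap encodes a protein that binds a TRP channel and is no channel itself. They are counted because their symbols match.

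Mef2a itself, the targeted gene, measured 25.8 and 32.2 FPKM in controls and 12.7 and 14.3 in siMEF2A cells, 46.5% of the scrambled mean (log2 difference -1.05, SE 0.15, limma adjusted p = 0.00016). The 2 groups did not overlap, and transcript of the targeted gene was still present. All 8 markers of differentiating skeletal muscle that were examined (Myod1, Myog, Des, Myh3, Actc1, Tnnt2, Ckm and Tmem8c) lay lower in both siMEF2A libraries than in either scrambled one. Of these, 6 passed the test, and the summed level of all 8 was 1011 and 1149 FPKM with scrambled siRNA against 593 and 650 with siMEF2A. Many of the markers of other cell types were without a value, and others were listed. None of 5 endothelial markers had a listed transcript, and neither did Ptprc, Csf1r and Adgre1 of macrophages, Snap25, Syt1, Rbfox3 and Elavl4 of neurons, or Myh11 and Cnn1 of smooth muscle. Decorin and other fibroblast genes, 4 of 5 listed, summed to 225 and 314 FPKM against 316 and 327. Most of that sum was decorin (Dcn, 123% of scrambled). Pdgfra was at 134%, Lum and Col1a1 were at 83.9% and 80.5%, and none of the 4 was called. The 2 listed neuronal genes summed to 69.2 and 71.5 against 87.5 and 77.9, nearly all of it Stmn2, the 2 macrophage genes to 0.836 and 0.688 against 1.52 and 1.07, the 2 adipocyte genes to 5.70 and 5.88 against 5.15 and 5.40 (Fabp4 at 50.7% of scrambled, below both controls with a limma adjusted p of 0.0698, and Cebpa at 111%), and the 2 smooth muscle genes to 626 and 760.2 against 483 and 570. Of the smooth muscle genes, Tagln was called lower, at 57.5% of scrambled (limma adjusted p = 0.0033), and Acta2, at 77.3%, was not called. The part of these marker levels in the results that follow was not tested. In bulk RNA, fewer cells of a kind and less RNA per cell cannot be told apart.

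Cacna1s and Cacnb1, both of the L-type calcium channel complex, were called lower in siMEF2A cells, and no ion channel gene was called higher. These 2 of 49 are 4.08%, beside 1.6% of all 12771 genes tested that were called at a limma adjusted p under 0.05 (1.31% lower and 0.29% higher). Log2 differences here are of log2(FPKM + 1), siMEF2A minus scrambled, a scale that understates changes of genes near or under 1 FPKM. They ran from -0.97 to 0.44 over the 49 genes, with a median of 0.03 against 0.04 over all genes. The siMEF2A values lay above both scrambled values in 10 genes, below both in 9 and overlapped in 30. The shares above (20.4%) and below (18.4%) can be read beside 18.9% and 9.91% of all genes, 28.8% together. At an unadjusted p under 0.05 there were 2 higher and 6 lower ion channel genes, beside 3.21% and 3.59% of all genes, 6.8% together. With 2 libraries a group, an exact two-sided permutation test of a single gene cannot go below p = 0.333, so calls rest on the variance that limma shares between genes.

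**Figure D1:**
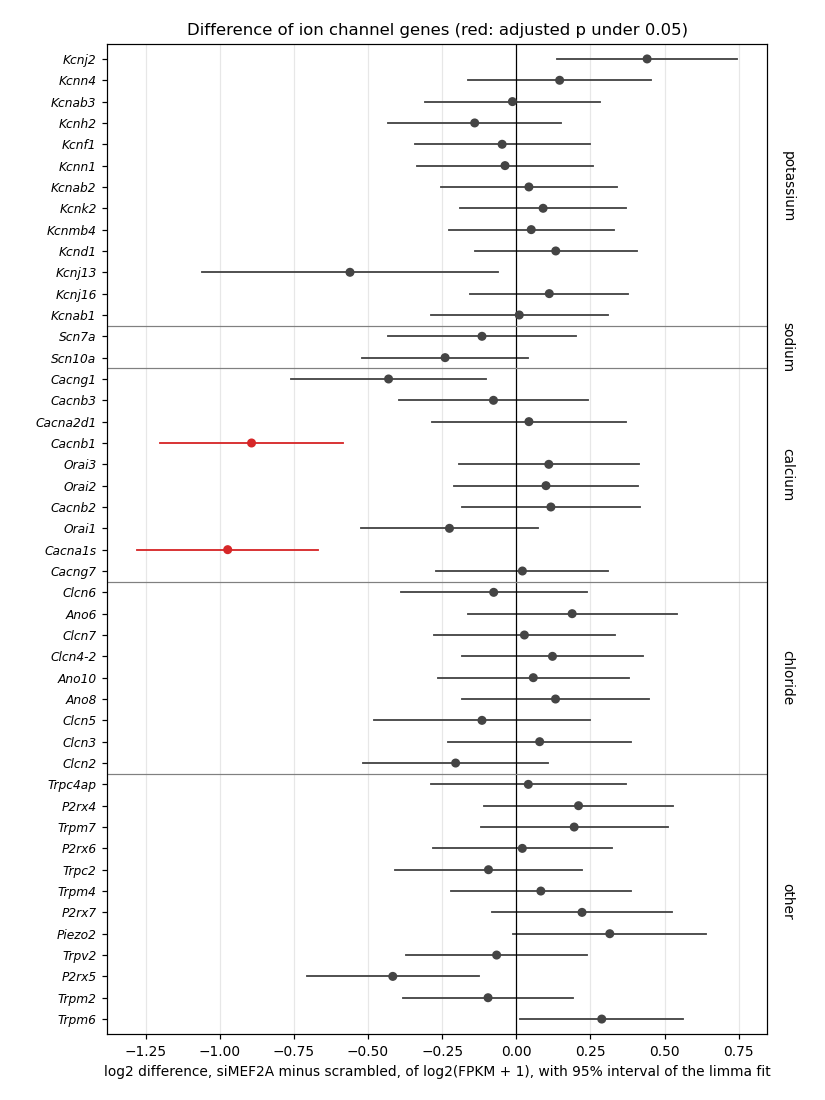
Log2 difference of each of 46 of the 49 genes (points, x axis; siMEF2A minus scrambled, of log2(FPKM + 1)) with the 95% interval of the limma fit (lines), grouped by the ion carried. Cacna1s (-0.97) and Cacnb1 (-0.89), drawn in red, are the 2 genes with an adjusted p under 0.05, and Kcnj2 (0.44) has the highest value.

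Cacna1s (ENSMUSG00000026407, mm10 chr1:136052750-136119822, plus strand) encodes the pore and voltage sensor of the skeletal muscle L-type channel. Its level was 2.87 and 2.61 FPKM with scrambled siRNA and 0.677 and 1.16 with siMEF2A. The groups were far apart, with the higher siMEF2A value under the lower scrambled one. The mean went from 2.74 ± 0.184 to 0.918 ± 0.340 FPKM (SD, n = 2 each), 33.5% of scrambled, and the log2 difference was -0.97 (SE 0.15, 95% interval -1.28 to -0.67, limma adjusted p = 0.000211). The gene was expressed at a low level, at the 14.7th percentile of all genes tested.

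Cacnb1 (ENSMUSG00000020882, chr11:98001508-98023034, minus strand) encodes the beta subunit of the same complex, a cytoplasmic protein that binds the pore subunit and brings it to the membrane. It stood at 14.6 and 13.7 FPKM with scrambled siRNA and at 6.57 and 7.84 with siMEF2A. Again the groups did not overlap, and replicates were close. The means were 14.2 ± 0.625 and 7.20 ± 0.900 FPKM (SD, n = 2 each), so siMEF2A cells held 50.8% of the scrambled level (log2 difference -0.89, SE 0.15, 95% interval -1.20 to -0.58, limma adjusted p = 0.000753).

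The sequences upstream of both genes are shown because MEF2 factors bind DNA directly and these 2 genes are the ones called. They come from a RefSeq promoter table (GRCm38.p6, the same coordinates as mm10), run 5′ to 3′ on the gene's strand and stop before any annotated exon. Capitals mark the E-box, CANNTG, a motif bound by myogenic factors such as MyoD and myogenin.
Cacna1s, chr1:136052561-136052749, plus strand, directly before the gene: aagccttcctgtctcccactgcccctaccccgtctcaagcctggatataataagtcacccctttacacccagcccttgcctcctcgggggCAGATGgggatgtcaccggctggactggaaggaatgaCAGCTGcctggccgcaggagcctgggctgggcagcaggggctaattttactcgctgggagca
Cacnb1 outer start, chr11:98022635-98022877, minus strand, in an intron of the non-coding Cacnb1-207: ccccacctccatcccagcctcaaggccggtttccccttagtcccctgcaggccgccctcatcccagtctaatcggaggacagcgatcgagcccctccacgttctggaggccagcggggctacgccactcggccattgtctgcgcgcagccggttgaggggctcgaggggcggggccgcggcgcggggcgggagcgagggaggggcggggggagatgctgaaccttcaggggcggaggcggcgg
Cacnb1 inner start, chr11:98018373-98018622, minus strand, in an intron: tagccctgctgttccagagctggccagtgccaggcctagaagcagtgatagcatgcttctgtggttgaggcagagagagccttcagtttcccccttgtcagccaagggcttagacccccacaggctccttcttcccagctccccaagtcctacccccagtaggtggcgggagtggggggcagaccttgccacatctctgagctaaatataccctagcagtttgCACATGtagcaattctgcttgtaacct
The 2 E-boxes of Cacna1s, CAGATG and CAGCTG, begin 160 and 123 bases before the RefSeq start. The promoter table holds 2 starts of Cacnb1: the outer one serves the transcripts Cacnb1-201 and Cacnb1-202 and the inner one Cacnb1-204. The non-coding Cacnb1-206 and Cacnb1-207 matched neither. The outer stretch has a GC content of 72.4% and no E-box, while the inner one has 56.0% and a single E-box, CACATG, 27 bases before its start. Both strands of the 250 bases before each start were searched, and as CANNTG is its own reverse complement each match counts once. The MEF2 consensus searched was YTAWWWWTAR, where Y is C or T, W is A or T and R is A or G. No match to it was found in the 3 windows of these genes, which says only that those letters are not in these windows. The Cacna1s window holds ctaattttac and the inner Cacnb1 window ctaaatatac, which differ from the consensus in the last base alone. How often other promoters hold such near matches was not counted. Among the 58 promoters of the 38 ion channel genes found in the table, 2 held the MEF2 motif (3.45%, of Clcn3 and Kcnj16) and 42 an E-box (72.4%), beside 2.92% and 66.2% of all 32851 promoters and 1.58% and 56.9% of the 11081 promoters of genes tested. The table had no entry for Cacng1 or P2rx5.

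Listed transcripts of the 2 genes gave the same direction. The coding transcript Cacna1s-202 was at 1.10 and 1.30 FPKM against 0.537 and 0.366, and the coding Cacna1s-204 at 0.485 and 0.804 against 0.000108 and 0.339. A short non-coding transcript of 1001 bases, Cacna1s-203, made up 32.5% of the gene's summed FPKM and differed most between the scrambled replicates, at 1.28 and 0.501, with 0.140 and 0.454 under siMEF2A. Summed over coding transcripts alone, Cacna1s was at 1.59 and 2.11 FPKM against 0.537 and 0.705, 33.6% of scrambled. An annotated antisense gene, Gm37759, overlaps 20.0% of the exonic bases of Cacna1s, and no use of strand is stated.

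Of Cacnb1, the 2 transcripts of the outer start were at 43.9% (Cacnb1-202) and 47.7% (Cacnb1-201) of their scrambled means. The inner-start transcript Cacnb1-204 went from 3.34 and 2.59 FPKM to 1.99 and 1.62, 60.8% of scrambled. All 3 coding transcripts were thus lower in both siMEF2A libraries than in either control, whichever start they use. The non-coding Cacnb1-206 and Cacnb1-207 stood at 58.3% and 49.5%. How FPKM are divided between transcripts of a gene is an estimate of the authors' software, and no test was run on single transcripts.

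**Figure D2:**
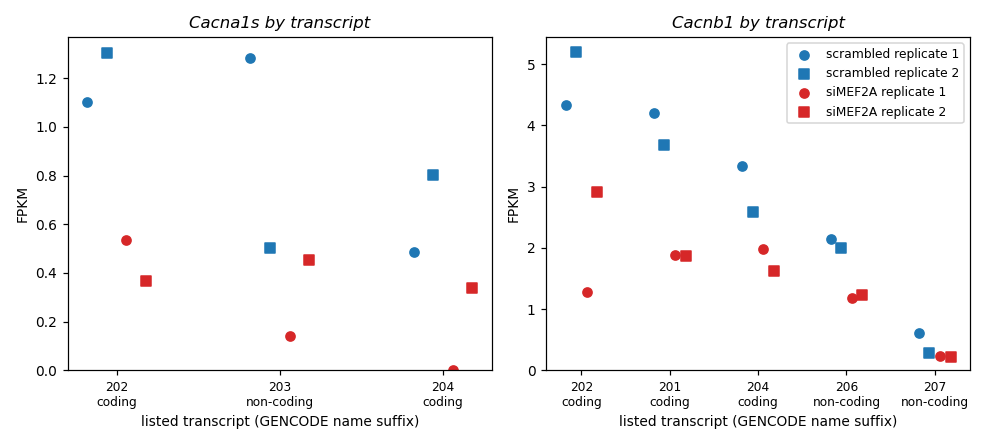
FPKM (y axis) of each listed transcript (x axis, GENCODE name suffix) of Cacna1s, left, and Cacnb1, right, with a point per library (blue scrambled, red siMEF2A, circles replicate 1, squares replicate 2). For Cacnb1 every siMEF2A point lies below both scrambled points of its transcript. For Cacna1s the 2 groups come closest in transcript 203, where scrambled replicate 2 is at 0.501 and siMEF2A replicate 2 at 0.454. In transcript 204 the nearest points are scrambled replicate 1 at 0.485 and siMEF2A replicate 2 at 0.339.

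The other subunits of the complex differed in their values. Cacng1 (ENSMUSG00000020722, chr11:107703218-107716522, minus strand), the gamma subunit of the muscle channel, had the highest mean of all 49 genes, 51.8 FPKM. It was at 53.8 and 65.5 FPKM with scrambled siRNA and at 41.1 and 46.6 with siMEF2A. These groups did not overlap either, and siMEF2A cells held 73.5% of the scrambled mean (log2 difference -0.43, SE 0.16, 95% interval -0.76 to -0.10), but the limma adjusted p was 0.337. Cacna2d1, the extracellular alpha2-delta subunit, overlapped, with 10.1 and 13.3 against 11.1 and 12.8 FPKM (log2 difference 0.04, 95% interval -0.28 to 0.37). Whether the subunit genes differ from each other in their response was not tested.

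Among beta subunits the other two did not pass the test. Cacnb3, a subunit best known from non-muscle cells, was at 51.4 and 53.0 FPKM against 46.2 and 52.8 (log2 difference -0.08, 95% interval -0.39 to 0.24). Cacnb2, best known from the heart, was at 4.86 and 5.03 against 5.52 and 5.38, both siMEF2A values above both controls (log2 difference 0.12, 95% interval -0.18 to 0.42). Per unit of length, Cacnb3 was therefore the most abundant beta subunit transcript in every library. Of the summed FPKM of the 3 genes, Cacnb1 took 20.6% and 19.2% in the scrambled libraries and 11.3% and 11.9% in the siMEF2A libraries, while Cacnb3 took 72.5% and 73.8% against 79.3% and 80.0%. The sum itself was 70.9 and 71.8 against 58.3 and 66.1 FPKM. Cacng7, a gamma-like subunit known from the brain, was low, at 0.729 and 0.809 against 0.600 and 1.01.

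Store-operated entry refills the calcium store: the ORAI pores open when STIM sensors detect an empty store. Orai1, the pore of the classical current, was at 4.08 and 4.52 FPKM in controls and at 3.52 and 3.54 in siMEF2A cells, 82.1% of scrambled. The groups did not overlap, with a log2 difference of -0.23 (95% interval -0.52 to 0.07) that did not pass the test. Orai2 was at 8.49 and 9.60 against 9.08 and 10.5, and Orai3 at 9.13 and 9.90 against 10.0 and 10.7. Orai1 was the least abundant of the 3 in every library, with 18.8% in both controls and 15.6% and 14.3% under siMEF2A of their summed FPKM. The sensors Stim1 and Stim2 were at 93.2% and 108% of scrambled, and neither passed the test. In all, 2 of 10 calcium channel genes were called lower (20%) and none higher, beside 1.31% and 0.29% of all genes tested. The median log2 difference of the 10 was -0.03, against 0.04 over all genes.

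**Figure D3:**
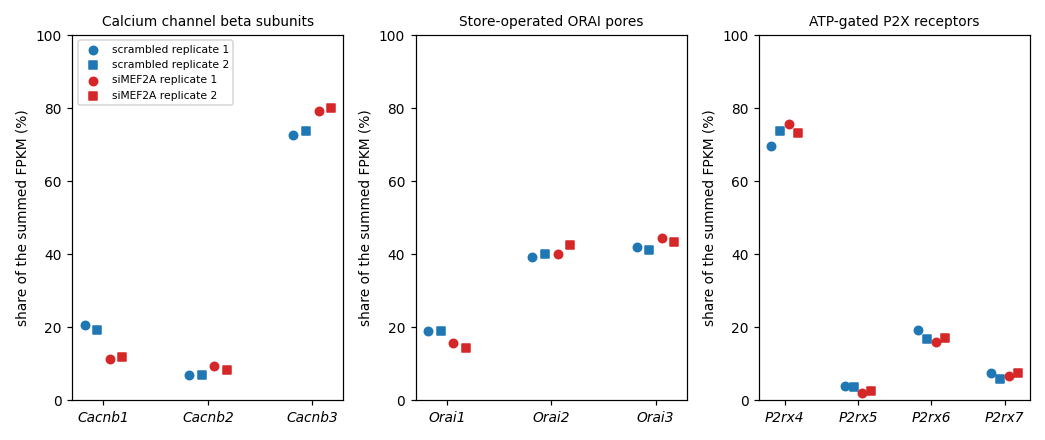
Share of the summed FPKM of each family (y axis, percent) taken by each member in each library, for calcium channel beta subunits (left), ORAI pores (middle) and P2X receptors (right), with blue for scrambled and red for siMEF2A. The Cacnb1 share is near 20% in scrambled and near 12% in siMEF2A libraries, and the Cacnb3 share is above 72% in all 4.

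Potassium channels were led by 1 gene. Kcnj2 (ENSMUSG00000041695, chr11:111066164-111076821, plus strand), the inward rectifier whose current draws the myoblast membrane to negative potentials before fusion, stood at 25.9 FPKM in both controls. With siMEF2A it stood at 35.6 and 35.4. The replicates of each group nearly coincided, the means being 25.9 ± 0.0313 and 35.5 ± 0.129 (SD, n = 2 each), 137% of scrambled. The log2 difference was 0.44 (SE 0.15, 95% interval 0.14 to 0.74), the highest of the 49 genes, and with the variance shared between genes the limma adjusted p was 0.217, so Kcnj2 was not called. Its share of all potassium channel FPKM was 55.2% and 55.3% against 65.4% and 61.5%. Kcnj12, the related muscle inward rectifier, was under the minimum, with a mean of 0.166 FPKM.

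The other 13 potassium channel genes had means under 5 FPKM and none was called, beside 1.6% of all genes tested that were. Kcnn4, an intermediate conductance channel opened by calcium, was at 3.83 and 3.90 against 3.89 and 4.93, and overlapped. Kcnab3, a cytoplasmic beta subunit, was at 2.56 and 2.14 against 2.45 and 2.18. Only 57.4% of its FPKM came from its sole listed coding transcript. That transcript was at 0.976 and 1.42 against 1.44 and 1.53, above both controls, and was not called in a fit on coding transcripts alone. Kcnh2, the ERG channel, was at 2.23 and 2.53 against 1.99 and 2.14. Here siMEF2A lay below the controls, at 86.7% of scrambled, with a limma log2 difference of -0.14 that did not pass the test. Kcnd1, an A-type channel, was at 0.748 and 0.819 against 0.988 and 0.923, above both controls (log2 difference 0.13). Of the 14 genes, 4 lay above (28.6%, beside 18.9% of all genes tested), 2 below (14.3%, beside 9.91%) and 8 overlapped, with a median of 0.03. Another 7 (Kcnf1, Kcnn1, Kcnab2, Kcnk2, Kcnmb4, Kcnj16 and Kcnab1) had log2 differences of -0.05 to 0.11.

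Kcnj13, an inward rectifier known from epithelia, is named for its scatter, chosen after its values were seen. It was at 1.89 and 0.483 FPKM in controls and at 0 and 0.969 in siMEF2A cells, so that the groups overlapped. The estimate rests on a single listed transcript of 261 bases, and 49.1% of the gene's exonic bases overlap Gigyf2 on the opposite strand, a gene at 19.6 FPKM. Its log2 difference of -0.56 (SE 0.24, limma adjusted p = 0.565) was not a call. It became one without scrambled replicate 2 (adjusted p = 6.31e-07) or without siMEF2A replicate 2 (4.54e-09), in fits where a gene's own spread did not enter its p.

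Sodium channel genes were low throughout. Scn10a, known from sensory neurons, was at 0.699 and 0.816 against 0.363 and 0.622, below both controls (log2 difference -0.24, limma adjusted p = 0.947). Scn7a, an atypical sodium sensing member, overlapped at 3.11 and 3.54 against 2.50 and 3.54. Scn4a, the adult skeletal muscle pore, was under the minimum in both groups, at 0.298 and 0.407 against 0.280 and 0.358. None of the 4 genes tested was called, with a median of -0.18, beside 1.6% called and a median of 0.04 over all genes.

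All 9 chloride channel and exchanger genes overlapped between the groups, beside 28.8% of all genes tested whose groups did not overlap. None of the 9 was called or had an unadjusted p under 0.05, beside 1.6% and 6.8% of all genes tested. The median was 0.06, against 0.04 over all genes. The most abundant was Clcn6, a late endosomal exchanger, at 26.3 and 24.6 FPKM against 22.0 and 26.4. Clcn7, the lysosomal exchanger, was at 19.6 in both controls and at 18.8 and 21.2 in siMEF2A cells. Clcn4-2, an endosomal exchanger, was at 14.8 and 16.2 against 16.2 and 17.7. These 3 exchanger genes had log2 differences of -0.08, 0.03 and 0.12. Ano6, a phospholipid scramblase and ion channel of the plasma membrane, was at 15.5 and 22.0 against 18.6 and 24.1 (log2 difference 0.19, 95% interval -0.16 to 0.54). Its controls differed from each other by more than the group means did. Ano8, Ano10, Clcn3 and Clcn5 had log2 differences of -0.12 to 0.13.

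Clcn2, a plasma membrane channel opened by hyperpolarisation, was picked out after its values were seen because only 19.1% of its FPKM came from a coding transcript. Over all listed transcripts it was at 3.41 and 2.86 FPKM against 2.21 and 2.99, overlapping (log2 difference -0.20, 95% interval -0.52 to 0.11). Its sole listed coding transcript, Clcn2-201, was at 0.700 and 0.850 against 0.317 and 0.319, 41.1% of scrambled. In an added fit on coding transcripts alone this gave a log2 difference of -0.43 with a limma adjusted p of 0.0264, in a fit where a gene's own spread did not enter its p. The remaining listed transcripts are annotated as retained introns or targets of nonsense-mediated decay.

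P2X receptors are cation pores opened by extracellular ATP. P2rx4 was the most abundant, at 40.5 and 47.1 FPKM against 52.1 and 49.3, above both controls (log2 difference 0.21, 95% interval -0.11 to 0.53). P2rx5 (ENSMUSG00000005950, chr11:73160421-73172685, plus strand), known from differentiating muscle, was at 2.23 and 2.38 against 1.32 and 1.64. Its groups did not overlap, the means were 2.31 ± 0.105 and 1.48 ± 0.221 FPKM (SD, n = 2 each), 64.2% of scrambled, and the log2 difference was -0.42 (SE 0.14, 95% interval -0.71 to -0.13). The limma adjusted p of 0.225 did not pass. P2rx6 was at 11.3 and 10.8 against 10.9 and 11.4, and P2rx7, a pore known from immune cells, at 4.30 and 3.67 against 4.56 and 5.04 (log2 difference 0.22). P2rx5 thus made up 3.83% and 3.73% of P2X FPKM in controls and 1.92% and 2.43% in siMEF2A cells, while P2rx4 made up 69.5% to 75.6% in all libraries.

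Of the TRP genes, Trpm7, a magnesium permeable channel fused to a kinase, was at 19.4 and 23.3 FPKM against 23.1 and 25.9 (log2 difference 0.19). Its close relative Trpm6 was at 0.508 and 0.643 against 0.847 and 0.998, above both controls, at 160% of scrambled (log2 difference 0.29, SE 0.13, limma adjusted p = 0.678). Both values of Trpm6 were under 1 FPKM in siMEF2A cells too, where the scale understates a change. Trpv2, a cation channel of muscle and macrophages, overlapped at 2.07 and 2.66 against 1.97 and 2.45. Trpc4ap was at 45.1 and 53.2 against 46.2 and 55.0, and Trpm4, a cation channel opened by calcium, at 4.44 and 4.37 against 4.36 and 5.12. Piezo2, a mechanically gated pore, overlapped at 2.07 and 2.71 against 2.65 and 3.82 (log2 difference 0.32, limma adjusted p = 0.786). Coding transcripts made up 54.9% of the Piezo2 FPKM. The values under Trpc2 come from 7 transcripts that GENCODE release M21 names Xndc1, and Trpm2 rests on 1 retained-intron transcript, so neither speaks of the channel itself. None of the 12 genes outside the 4 ion classes was called, and their median was 0.06, beside 1.6% and 0.04 over all genes tested.

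**Figure D4:**
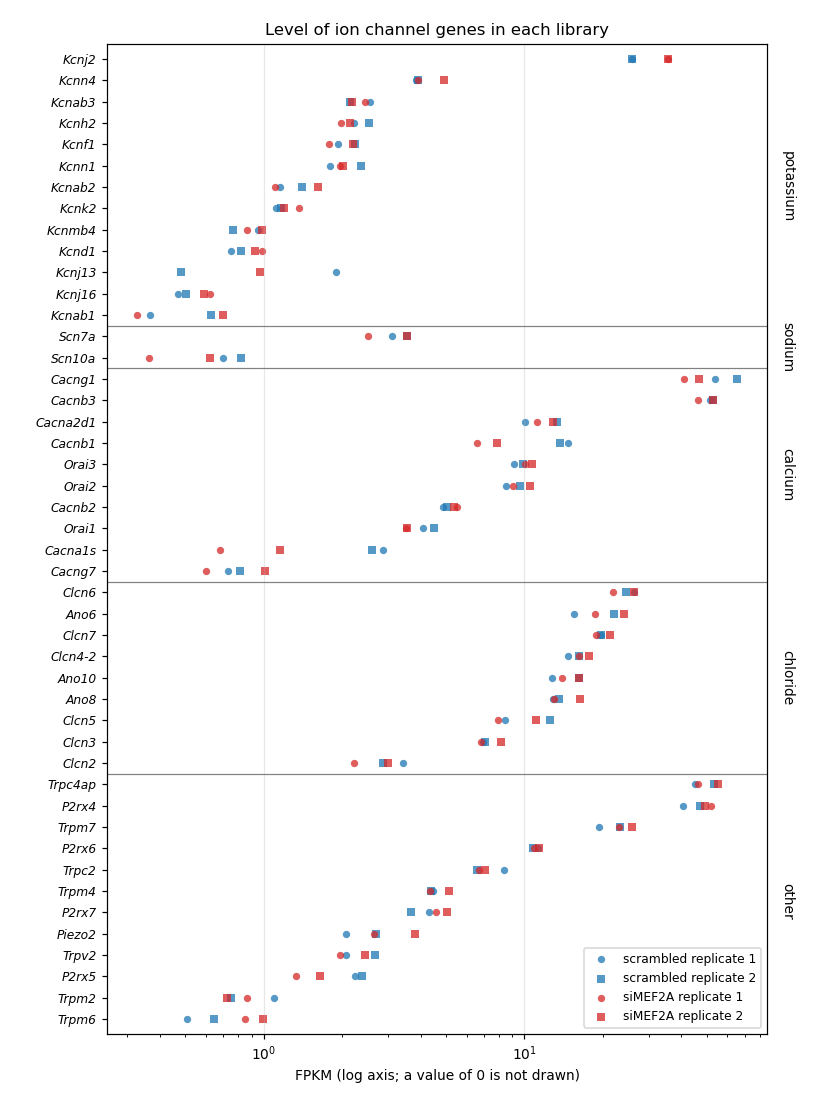
FPKM (x axis, log scale) of each of 46 of the 49 genes in each library (blue scrambled, red siMEF2A, circles replicate 1, squares replicate 2), grouped by ion and sorted by mean level; the value of 0 for Kcnj13 in siMEF2A replicate 1 is not drawn. Colours separate for Cacna1s, Cacnb1 and Kcnj2 and mix for all 9 chloride channel genes.

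Mean levels ran from 0.506 to 51.8 FPKM. They were 10 FPKM or more in 15 genes and under 1 FPKM in 9. Next to Cacng1 came Cacnb3 (50.9), Trpc4ap (49.9), P2rx4 (47.2) and Kcnj2 (30.7 FPKM). Just inside the minimum stood Kcnab1 (mean 0.506) and Kcnj16 (0.546), and just outside it Scn2a1 (0.459) and Kcnk5 (0.442); Kcnc2, Scn4a, Ano1 and Kcnj12 had 0.435, 0.336, 0.322 and 0.166. In 31 of the 49 genes at least 99% of the FPKM came from coding transcripts, and in 3 (Clcn2, Trpc2 and Trpm2) under 50%. The channel genes of adult muscle Clcn1, Kcnj11 and Kcnn3 were not among the listed symbols, so no level can be given for them. By subunit type, 36 genes encode pores, exchangers or scramblases, of which 1 was called lower (2.78%). Another 12 encode auxiliary subunits, of which 1 was called lower (8.33%), beside 1.31% of all genes tested. Of the 49 genes, 41 were higher in siMEF2A replicate 2 than in replicate 1, by a median of 0.19 on the log2 scale, and 62.5% of all genes were, by a median of 0.07. Between the scrambled replicates 35 were higher in replicate 2.

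**Figure D5:**
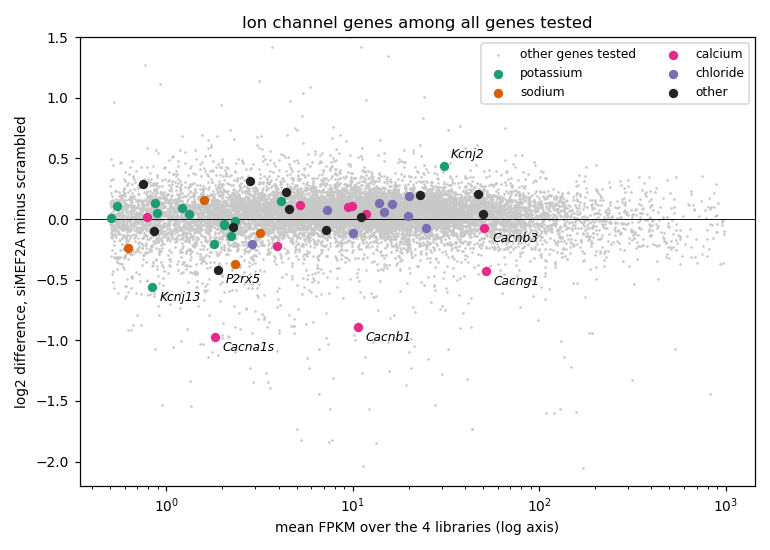
Log2 difference (y axis, siMEF2A minus scrambled) against mean FPKM over the 4 libraries (x axis, log scale) for ion channel genes, coloured by ion, and all other genes tested, grey; 112 genes lie outside the axes. Cacna1s at a mean near 2 FPKM and Cacnb1 near 11 lie under the grey band, and the other 47 genes lie between -0.56 and 0.44.

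Genes that work with these channels were described from lists not picked for how they moved, though written with earlier results known. Of 20 tested genes of the triad and the calcium store, 10 were called lower and none higher, with a median log2 difference of -0.50. Of all genes tested, 1.31% were called lower and 0.29% higher. Ryr1, the store's release channel that Cacna1s opens, fell from 1.40 FPKM in both controls to 0.529 and 0.626, 41.1% of scrambled (limma adjusted p = 0.0123). Jsrp1, whose product binds the L-type channel, fell to 57.4% (limma adjusted p = 0.00471), Jph2, which tethers the tubule to the store, to 62.2% (0.0301), and Tmem38a, a potassium channel of the store membrane, to 61.1% (0.0115). Casq1 and Casq2, the calcium buffers of the store, fell to 7.94% and 36.3% (limma adjusted p = 1.48e-07 and 4.05e-06), and the calcium pump Atp2a1 to 52.5% (0.00146). Stac3, an adaptor that couples the L-type channel to Ryr1, was at 9.13 and 9.89 against 6.53 and 7.40 FPKM, below both controls, with a limma adjusted p of 0.341.

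Among 21 other pores outside the symbol pattern, such as the volume-regulated LRRC8 and gap junction genes, none was called and the median was 0.10. Over all genes tested, 1.6% were called and the median was 0.04. Gja1, the connexin gene of myoblast gap junctions, was at 68.3 and 88.9 FPKM against 106 and 111, above both controls (log2 difference 0.47, the highest of these pores, limma adjusted p = 0.292).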

How the data were processed

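RNA-seq values of 4 C2C12 libraries, 2 scrambled and 2 siMEF2A, were deposited by the authors as FPKM per Ensembl transcript, with symbols and loci, per the file headers. They used TopHat, Bowtie, Cufflinks, Trimmomatic and CASAVA on build mm10, per the submitters' processing notes. Not given in the sources used here are tool versions and settings, annotation, strand use and scaling between libraries. Fragment totals are unknown. Low values that should be whole multiples of 1 fragment put scrambled replicate 2 and the siMEF2A libraries at 1.05, 0.849 and 0.849 of the depth of scrambled replicate 1, a ratio shared by only 11 to 17 of 600 genes. No counting interval can be given.

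FPKM were summed per symbol (13824 symbols, 36231 transcripts), 27 small RNA symbols did not enter, and the test covered the 12771 genes whose mean reached 0.5 FPKM. The test was limma 3.58.1 in R 4.3.3 on log2(FPKM + 1), with an intensity trend, two-sided, Benjamini-Hochberg adjusted over all genes tested and called under 0.05. All 4 libraries entered the fit with no covariate (2 residual and 20.9 prior degrees of freedom). Replicates correlated across genes at r = 0.990 (scrambled) and 0.988 (siMEF2A), and genes are not independent replicates. Tested on simulated data over 12771 genes for siMEF2A against scrambled, it recovered 41.8% of 67 genes changed 1.5-fold, 95.5% of 67 changed 2-fold and 100% of 66 changed 4-fold, with 5 false calls. These changes were set on the log2(FPKM + 1) scale, in genes with a mean above 1 on it. A fold in FPKM is smaller on that scale, most so at low levels. Recovery of weakly expressed genes was therefore not measured, and that of a fold in FPKM is lower than stated. The simulated noise was normal and independent between genes, with variances drawn from the prior of the limma fit itself. The few false calls therefore hold for data that meet the model, and the error rate in the real libraries was not measured.

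Genes named were those called, the 4 of each class with the highest mean, the 2 of each class with the smallest p in each direction among groups that did not overlap, and a list of muscle channel genes. Genes named from the marker, partner and pore lists follow no such rule, and most of the triad and store genes named were called. Other genes outside this rule either carry a remark that their values were seen first, or belong to the description of a family or of the minimum. Members and lists were chosen with earlier results of these data known. Transcript types come from GENCODE release M21. Some genes are not reported here by name, and ChIP-exo data were not analysed here.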

Additional observations from a re-analysis of the deposited data

How the results depend on the processing

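Under 16 alternatives, 15 planned and 1 (coding transcripts only) added after seeing the data, Cacna1s and Cacnb1 remained called lower, with log2 differences of -1.52 to -0.60 and -1.005 to -0.781 and limma adjusted p of 1.73e-09 to 0.0331 and 1.56e-06 to 0.0205. Of 30 named genes, 20 never changed direction. The number of ion channel genes called lower was 2 to 4, and 0 were called higher, when each library was left out. Kcnj13 joined without scrambled replicate 2 and without siMEF2A replicate 2 (adjusted p = 6.31e-07 and 4.54e-09). On coding transcripts alone 4 were lower, with Clcn2 and Kcnj13 added (adjusted p = 0.0264 and 0.000778). In these fits limma's prior degrees of freedom were infinite, so a gene's own spread did not enter its p. With robust moderation in the coding fit, Kcnj13 had an adjusted p of 1.000 and Clcn2 of 0.0153. A replicate block gave 1 ion channel gene higher and 4 lower, adding Cacng1 (adjusted p = 0.0336), Kcnj2 (0.0256) and P2rx5 (0.0488). The control columns carry other numbers in the files than in the sample titles, so which controls pair with which libraries is in doubt, and same-numbered libraries' deviations correlated at 0.278. Over all genes the block called 162 higher and 278 lower. Leaving out each library gave 53 to 89 higher and 174 to 211 lower. Against 37 higher in the reported fit, the count was 15 with median-ratio, 15 with upper-quartile and 11 with quantile scaling, 20 with the highest transcript per gene, 23 with small RNA symbols kept, 22 without the trend, 91 with robust moderation and 92 with coding transcripts alone. Lower genes were 81.9% of all calls in the reported fit, 90.7%, 90.4% and 91.1% under the 3 scalings, 70.7% with robust moderation, 66.5% with coding transcripts alone, 67.6% without scrambled replicate 2 and 63.2% with the block. The cause of these differences was not tested.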
